A study of Mus musculus with 6 samples.

Results

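The kinetochore and spindle checkpoint genes described here are 35 named genes of the 22281 features in a count table of mouse heart cells. They were taken by name from a list of textbook parts of the mitotic kinetochore and its checkpoint, and the rule that picks them uses no measured value. All 35 were found in the table, Casc5 being the older symbol of Knl1. Their unique molecular identifiers (UMIs, the count of distinct captured transcripts) were summed per cluster and library, and YAP5SA hearts were set against Control hearts.

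The hearts came from adult mice, and all mice received tamoxifen. YAP5SA hearts had the genotype Yap5SA+/tg; Myh6-MCM, in which tamoxifen turns on a form of the coactivator Yap that the kinases Lats1/2 cannot phosphorylate, in cardiomyocytes, through a Cre driven by the cardiomyocyte promoter of Myh6. Control hearts were Myh6-MCM without that transgene, so both groups carried the Cre and had tamoxifen. Hearts were digested with collagenase on a Langendorff apparatus and single cells were read by Drop-seq, which tags the transcripts of each cell in a droplet. Each genotype had 3 libraries: 2 of dissociated tissue, in which the settled cardiomyocytes and the other cells were put together again, and 1 of cardiomyocytes enriched by settling. Values per library are given for tissue-1, tissue-2 and the enriched one in YAP5SA hearts and for tissue-2, tissue-3 and the enriched one in Control hearts, always in that order. How many hearts went into a library is not given in the sources used here, so p-values measure the spread between these libraries, part of which may be technical.

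The libraries held 3845, 5860 and 4566 cells of YAP5SA hearts and 2914, 3116 and 1405 cells of Control hearts, with 3382656 to 13483791 UMIs per library and a median of 1323 to 1897.5 UMIs per cell. The median share of UMIs on mitochondrial genes was 2.95%, 2.40% and 6.60% in YAP5SA libraries and 2.31%, 15.95% and 13.4% in Control libraries, and its part in the results was not tested. The cells carry the authors' 17 cluster names. The clusters CM1, CM2, CM3 and YAP5SAcm were taken as cardiomyocytes, 1629 cells of YAP5SA and 2817 of Control hearts. All 8 cardiomyocyte markers listed, among them Myh6, Tnnt2 and Ryr2, were found in the cardiomyocytes of every library. Yap1 stood at 52.9, 46.0 and 24.6 CPM (UMIs of a gene relative to all UMIs of the summed cells) in YAP5SA cardiomyocytes and at 17.9, 14.8 and 15.3 CPM in Control cardiomyocytes. Whether transcripts of the transgene are counted under Yap1 is not given in the sources used here.

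The kinetochore is the protein assembly that forms on the centromere of each chromosome and holds it to the microtubules of the spindle. A histone variant marks the centromere, an inner layer of proteins binds that chromatin, and an outer layer grips the microtubule ends. Kinetochores that are not yet attached switch on the spindle checkpoint, which keeps the anaphase-promoting complex from starting chromosome separation, and the kinase of the chromosomal passenger complex releases wrong attachments. Most of these genes are transcribed ahead of mitosis, and cardiomyocytes of the adult mouse heart rarely divide.

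In cardiomyocytes 25 of the 34 members tested were higher in YAP5SA than in Control hearts and none was lower, as found with edgeR's quasi-likelihood test and Benjamini-Hochberg adjustment over all genes at 0.05. Of all 11842 genes tested there, 13.3% were called higher and 12.1% lower. Members with few or no Control UMIs, such as Aurkb, passed the filter on low counts through YAP5SA libraries alone. Which members were tested therefore depends partly on that filter. Without the filter 25 of 35 members were higher and 0 lower, among 1686 higher and 1505 lower of 19433 genes. The log2 fold changes of the members had a median of 4.15, against 0.06 over all genes tested. The calls reached every layer of the kinetochore, with 1 of 2 genes of the centromeric nucleosome, 6 of 10 of the inner kinetochore, 5 of 6 of the outer kinetochore, 4 of 6 of microtubule attachment, 5 of 6 tested of the checkpoint and 4 of 4 of the chromosomal passenger complex. Ttk, the kinase that starts checkpoint signalling, was too low to be tested, with 22 UMIs in YAP5SA and 3 in Control cardiomyocytes.

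The summed level of the 35 genes was 831.5, 955.3 and 632.8 CPM in YAP5SA cardiomyocytes, against 210.9, 194.4 and 170.4 CPM in Control cardiomyocytes. Every YAP5SA library was above every Control library. Of single members, Cenpa, Cenpp, Zwint and Bub3 had CPM values that overlap between the genotypes, and the other members did not. These CPM values are not scaled by the bulk of the genes. How many of all genes do not overlap was not counted, so the lack of overlap is not read as a trait of the members. More positive cells and more RNA per cell cannot be told apart in such sums. The sums were not spread evenly over the members: 8 of them (Cenpa, Cenpp, Cenpq, Spc24, Zwint, Cenpf, Ska2 and Bub3) held 46.7% of the members' UMIs in YAP5SA and 89.8% in Control cardiomyocytes. In Control cardiomyocytes 18 members had fewer than 10 UMIs in all libraries together, and 1 member, Aurkb, had none.

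**Figure D1:**
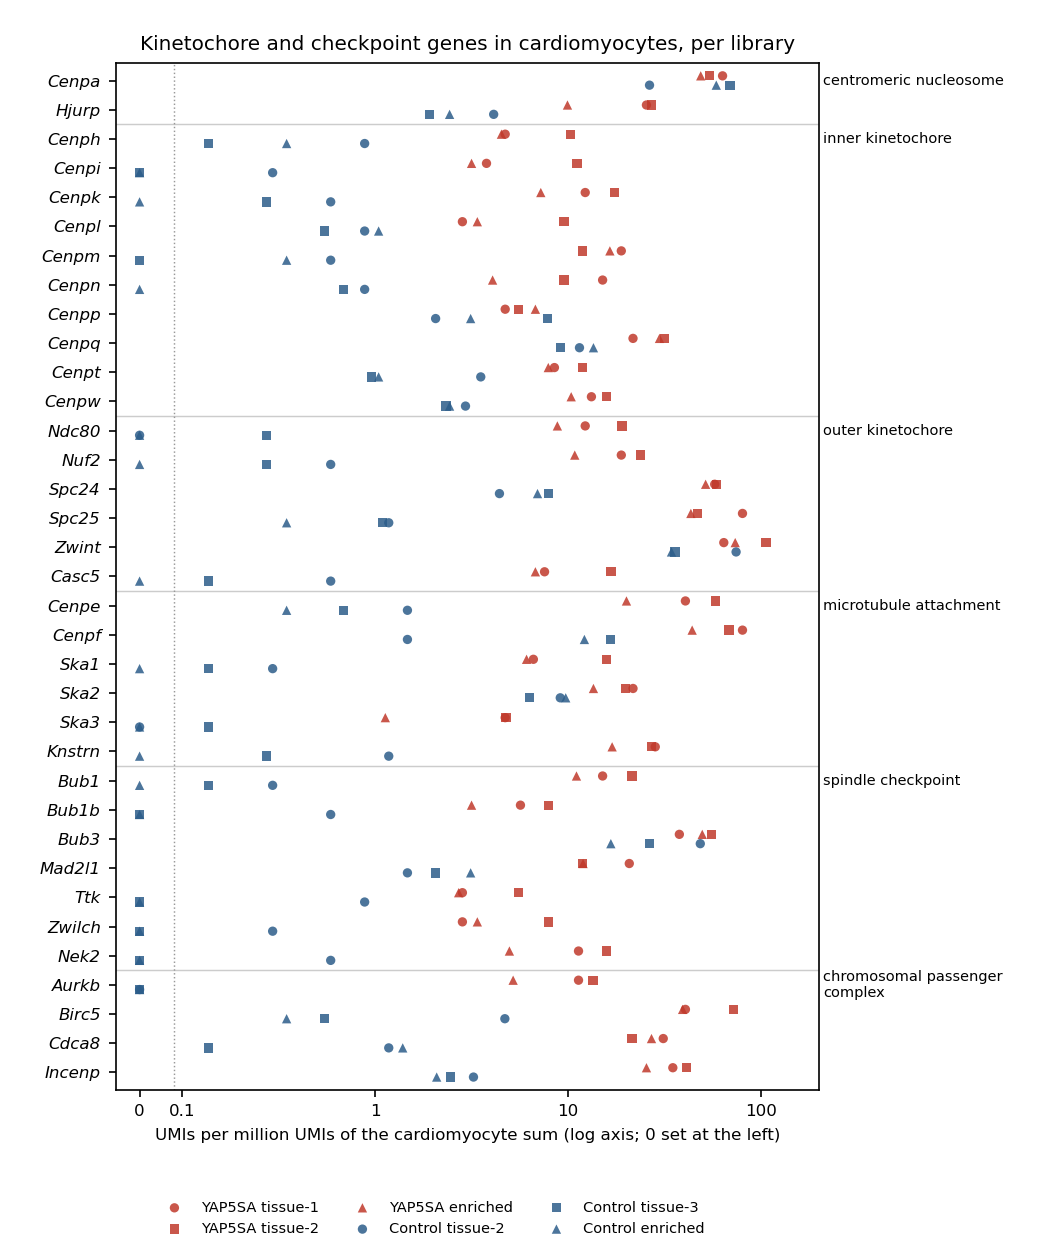
CPM of each of the 35 genes in the cardiomyocytes of a library, on a log axis with 0 set at the left; red points are the 3 YAP5SA libraries and blue points the 3 Control libraries, and genes are grouped by role. Spc25 lies at 80.2, 46.8 and 43.3 CPM in red and at 1.18, 1.09 and 0.347 CPM in blue, whereas red and blue points overlap for Zwint and Bub3.

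CPM values count against all UMIs of the cardiomyocytes, and the test scales them by the bulk of the genes (TMM). Without that scaling, all genes tested had a median of 0.92 on the log2 scale rather than 0.06, the calls over all genes were 4382 higher and 440 lower rather than 1574 higher and 1430 lower, and 30 members were higher. Fold changes below are from the scaled test and are relative to that shift.

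The genes that assemble the outer kinetochore showed some of the clearest differences. Spc25, a subunit of the Ndc80 complex that binds microtubules, stood at 80.2, 46.8 and 43.3 CPM in YAP5SA cardiomyocytes and at 1.18, 1.09 and 0.347 CPM in Control cardiomyocytes (log2 fold change 5.06 ± 0.44 SE, adjusted p 0.0023). Nuf2, a second subunit, had 18.9, 23.8 and 10.8 CPM in YAP5SA and 0.588, 0.273 and 0 CPM in Control (5.00 ± 0.60, adjusted p 0.00422). Ndc80 itself had 12.3, 19.0 and 8.80 CPM in YAP5SA and 0, 0.273 and 0 CPM in Control (5.47 ± 0.80, adjusted p 0.00791). For these 3 genes the groups lie far apart, and the Control values rest on 13, 4 and 2 UMIs. Spc24, the remaining subunit, rose as well, at 57.6, 58.7 and 51.7 CPM in YAP5SA and 4.41, 7.93 and 6.94 CPM in Control. Casc5, the scaffold that recruits checkpoint proteins, was higher, with 59 UMIs in YAP5SA and 3 in Control cardiomyocytes. Zwint, which binds Casc5, was the exception: it had 64.2, 106 and 73.5 CPM in YAP5SA and 74.3, 35.8 and 34.4 CPM in Control (−0.04 ± 0.32, adjusted p 0.945). The Control library tissue-2 lies inside the YAP5SA range for Zwint, and without the scaling its log2 fold change was 0.80.

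The 4 genes of the chromosomal passenger complex were all higher. Incenp, its scaffold, had 34.9, 41.3 and 25.5 CPM in YAP5SA and 3.23, 2.46 and 2.08 CPM in Control (2.83 ± 0.32, adjusted p 0.00346). Cdca8, which encodes borealin, had 31.1, 21.4 and 27.1 CPM in YAP5SA and 1.18, 0.137 and 1.39 CPM in Control (4.24 ± 0.60, adjusted p 0.00662). Birc5, which encodes survivin, had 40.6, 72.2 and 39.3 CPM in YAP5SA and 4.70, 0.547 and 0.347 CPM in Control (4.16 ± 0.72, adjusted p 0.0113). In all 3 genes each YAP5SA library exceeded each Control library. Aurkb, the kinase of the complex, had 11.3, 13.5 and 5.19 CPM in YAP5SA and no UMI in the 3 Control libraries (adjusted p 0.0105). With the Control group set at 3 counts over the group, Aurkb was at least 34.9-fold higher in YAP5SA. This bound is from unscaled UMIs of the summed groups and not from the scaled test.

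Checkpoint genes divided in the same manner. Bub1, a kinase that loads other checkpoint proteins, had 15.1, 21.4 and 11.1 CPM in YAP5SA and 0.294, 0.137 and 0 CPM in Control (5.66 ± 0.64, adjusted p 0.00358). Bub1b and Mad2l1, whose products join the inhibitor of the anaphase-promoting complex, Zwilch, which helps bring Mad proteins to the kinetochore, and the kinase gene Nek2 were also higher, and log2 fold changes of the checkpoint genes called ran from 1.83 to 5.66. Bub3, which binds Bub1 and the protein of Bub1b, had 37.8, 55.5 and 49.6 CPM in YAP5SA and 48.5, 26.5 and 16.7 CPM in Control (−0.10 ± 0.37, adjusted p 0.863). The groups overlap for Bub3 through Control tissue-2, and its log2 fold change was 0.74 without the scaling.

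Among the genes of microtubule attachment, Cenpe, the kinesin that carries chromosomes to the spindle's middle, had 40.6, 57.9 and 20.1 CPM in YAP5SA and 1.47, 0.684 and 0.347 CPM in Control (4.72 ± 0.41, adjusted p 0.0023). Knstrn, a kinetochore protein of the spindle, had 28.3, 27.0 and 16.9 CPM in YAP5SA and 1.18, 0.273 and 0 CPM in Control (4.86 ± 0.63, adjusted p 0.00535). Ska1, of the complex that follows shrinking microtubule ends, had 6.61, 15.9 and 6.09 CPM in YAP5SA and 0.294, 0.137 and 0 CPM in Control (4.95 ± 0.81, adjusted p 0.00961). These groups do not overlap, and Ska3 of the same complex was higher too, on 16 UMIs in YAP5SA and 1 in Control. Ska2, the third subunit of the Ska complex, was not called, at 21.7, 19.8 and 13.5 CPM in YAP5SA and 9.11, 6.29 and 9.72 CPM in Control (0.26 ± 0.33, adjusted p 0.601), though these CPM values do not overlap; without the scaling it was called higher. Cenpf, a large coiled-coil kinetochore protein, had 80.2, 68.2 and 44.0 CPM in YAP5SA and 1.47, 16.5 and 12.1 CPM in Control but was not called (1.63 ± 0.78, adjusted p 0.165), except without the scaling, in the 4 libraries with joined names and without Control tissue-2.

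The inner kinetochore and the centromeric nucleosome held most of the members that were not called. Cenpk had 12.3, 17.5 and 7.22 CPM in YAP5SA and 0.588, 0.273 and 0 CPM in Control (4.48 ± 0.67, adjusted p 0.00826), and Cenpm had 18.9, 11.9 and 16.5 CPM in YAP5SA and 0.588, 0 and 0.347 CPM in Control (4.98 ± 0.77, adjusted p 0.00883). Both belong to the network of proteins that stays on the centromere through the cell cycle, as do Cenph, Cenpi, Cenpn and Cenpw, which were also higher, with log2 fold changes of 1.47 to 5.04 over the 6 genes. Cenpl, Cenpp, Cenpq and Cenpt of the same network were not called (−0.54 to 1.79). Hjurp, the chaperone that loads the centromeric histone, was higher, at 25.5, 27.0 and 9.93 CPM in YAP5SA and 4.11, 1.91 and 2.43 CPM in Control (1.97 ± 0.41, adjusted p 0.0165). Cenpa, the centromeric histone itself, was not: it had 63.2, 54.0 and 48.7 CPM in YAP5SA and 26.4, 69.2 and 58.7 CPM in Control (−0.84 ± 0.46, adjusted p 0.21), though it was called lower without Control tissue-2. In the other roles, then, called and uncalled members stand side by side, and the passenger complex alone had none uncalled.

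The count of 25 moved with the library left out. Without YAP5SA tissue-1 14 members were called higher, among 4.16% of all genes, and without YAP5SA tissue-2 6 were (Bub1, Cenpe, Incenp, Knstrn, Nuf2 and Spc25), among 1.69% of all genes. Without Control tissue-2 26 were higher and Cenpa was lower (−1.23 ± 0.26, adjusted p 0.00458), among 20.6% of all genes higher and 19.1% lower. In tissue libraries alone 18 of 30 members tested were higher, among 9.63% of all genes, and the enriched libraries, 1 per genotype, allow no test on their own. In the 4 libraries whose overlapping genes carry joined names 22 of 32 members tested were higher and Bub3 was lower, among 19.9% of all genes higher and 21.1% lower. Exons near the 3′ ends of Cenpp, Cenpt, Ska2, Ska3 and Zwilch overlap a gene on the opposite strand, and since the strand used in counting is not given here, their counts are uncertain.

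Fibroblast and macrophage markers moved with the genotype in cardiomyocytes, and their part in the result was not tested. The 8 fibroblast markers summed to 462 to 644 CPM in YAP5SA and 78.1 to 414 CPM in Control cardiomyocytes, and the 10 macrophage markers to 340 to 838 CPM in YAP5SA and 19.4 to 254 CPM in Control. The 8 cardiomyocyte markers summed to 26441 to 37627 CPM in YAP5SA and 55930 to 86528 CPM in Control. In cardiomyocytes with no UMI of a fibroblast, macrophage or monocyte marker, the 35 genes summed to 702, 853 and 466 CPM in YAP5SA and 194, 181 and 166 CPM in Control. With these cells alone, 7 of 15 members tested were higher, among 8.25% of all genes.

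Promoters show what letters the members share upstream of their starts. RefSeq promoter windows on GRCm38.p6, from 250 bases before to 50 after a start, were matched for 30 of the 35 genes. The cell cycle homology region, searched as TTTGAA or TTCGAA on both strands and known as a binding element of the complex that restrains and then activates G2/M genes, was in 53.3% of the 30 members and in 21.7% of all 27025 genes with a window. CCAAT, the letters bound by NF-Y, was in 21 of the 30 members and 41.1% of all genes. E2F letters, searched as TTCCCGC or TTGGCGC, were in 6 of the 30 members and 7.79% of all genes, and the letters GGAATG, which the TEAD partners of Yap bind, in 16.7% of members and 16.6% of all genes. Members called higher in cardiomyocytes held the cell cycle homology region in 11 of 20 windows, and the others in 5 of 10. A match describes letters and is not a shown binding site, and in 2 places the region and CCAAT overlap.

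Windows of 5 members, chosen after their values were seen, are shown from 100 bases before to 25 after the start on the gene's own strand, to set raised genes beside genes that were not called. Capitals mark the cell cycle homology region or CCAAT on either strand. Where a gene had several starts, the one whose stretch held the most such matches is shown. Bub1 (chr2:127831835-127831959, minus strand) and Cdca8 (chr4:124936893-124937017, minus strand) were raised, and Cenpa (chr5:30666786-30666910, plus strand), Bub3 (chr7:131560270-131560394, plus strand) and Zwint (chr10:72654746-72654870, plus strand) were not called.
Bub1: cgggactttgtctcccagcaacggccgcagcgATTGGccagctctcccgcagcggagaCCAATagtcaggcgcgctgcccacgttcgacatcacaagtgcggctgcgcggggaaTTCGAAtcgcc
Cdca8: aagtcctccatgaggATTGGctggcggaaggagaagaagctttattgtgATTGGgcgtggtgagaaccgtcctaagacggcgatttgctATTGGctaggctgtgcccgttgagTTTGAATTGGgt
Cenpa: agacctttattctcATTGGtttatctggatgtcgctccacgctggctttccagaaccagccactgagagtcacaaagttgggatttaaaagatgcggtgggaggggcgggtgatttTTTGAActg
Bub3: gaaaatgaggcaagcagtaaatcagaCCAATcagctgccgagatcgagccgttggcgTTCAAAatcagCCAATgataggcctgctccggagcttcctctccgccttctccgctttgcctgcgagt
Zwint: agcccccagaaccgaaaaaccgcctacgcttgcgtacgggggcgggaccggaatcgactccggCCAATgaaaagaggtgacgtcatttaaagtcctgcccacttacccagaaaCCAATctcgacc
The cell cycle homology region stands just after the start in Bub1, Cdca8 and Cenpa and before it in Bub3, and the shown window of Zwint holds CCAAT alone. From another start of Bub3 the region lies at −167 and CCAAT at −198 and −156, outside a stretch of the shown length. Cenpa and Bub3, which were not called, hold one of the searched forms, as do the raised Bub1 and Cdca8.

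Within the cardiomyocytes most of these transcripts lay in the cluster YAP5SAcm, which held 896 of 1629 YAP5SA and 99 of 2817 Control cardiomyocytes. Of the members' UMIs, 4099 of 4890 in YAP5SA cardiomyocytes came from that cluster. The summed level there was 1078, 1151 and 958 CPM in YAP5SA libraries and 274, 251 and 111 CPM in Control libraries, the last on 16 cells. In CM1 to CM3 together it was 246, 387 and 278 CPM in YAP5SA and 208, 194 and 171 CPM in Control. The clusters were drawn from the same transcripts, so these values describe where the counts lie and are not independent of the clustering.

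In YAP5SAcm 6 of 16 members tested were higher in YAP5SA cells, against 5.67% of 7014 genes, and none was lower, against 2.98%. They were Spc25, Incenp, Cenpf, Cdca8, Birc5 and Cenpq, of which Incenp, Cdca8 and Cenpq had no UMI in Control cells, with edgeR's adjusted p between 0.00292 and 0.0314. Genes without a Control UMI passed the filter on low counts through YAP5SA libraries alone, so the 6 of 16 depend partly on that filter. Without the filter 5 of 35 members were higher, among 322 of 18222 genes. Spc25 had 111, 58.7 and 77.8 CPM in YAP5SA and 0, 11.9 and 0 CPM in Control cells of that cluster. Bub1 had 21.4, 28.8 and 20.3 CPM in YAP5SA and no UMI in Control cells of the cluster, too few counts to be tested. The 99 Control cells limit this comparison. DESeq2 called 2 members higher, among 224 of 7014 genes. In the tissue libraries alone it was 0 of 14 tested, among 61 of 6430 genes. An unadjusted p under 0.05 was found there for 9 of the 14 and for 1320 of the 6430 genes. Without a library the count ran from 0 (each YAP5SA library or Control tissue-2 left out) through 3 (Control tissue-3) to 6 (Control enriched). Without YAP5SA tissue-1 or tissue-2, 0 of all genes tested were called higher.

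DESeq2 called 3 of the 17 members tested in CM1 to CM3 higher, among 249 of 10335 genes. With edgeR 0.155% of the 10335 genes were called higher and 0 lower. None of the members, 0 of 17, was called by edgeR. An unadjusted p under 0.05 was found for 6 of the 17 and for 1810 of the 10335 genes. Cenpk, Cenpm, Spc25, Birc5 and Knstrn were on the higher side of those 6 and Cenpa on the lower. Spc25 had 6.38, 12.4 and 5.66 CPM in YAP5SA and 1.23, 0.968 and 0.350 CPM in Control cells of these clusters. Cenpa had 35.1, 12.4 and 28.8 CPM in YAP5SA and 27.0, 69.7 and 58.9 CPM in Control cells, so its level in CM1 to CM3 was no higher in YAP5SA. Without Control tissue-2 3 of 14 members tested were called higher and 1 lower, among 7.52% of all genes higher and 7.95% lower.

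**Figure D2:**
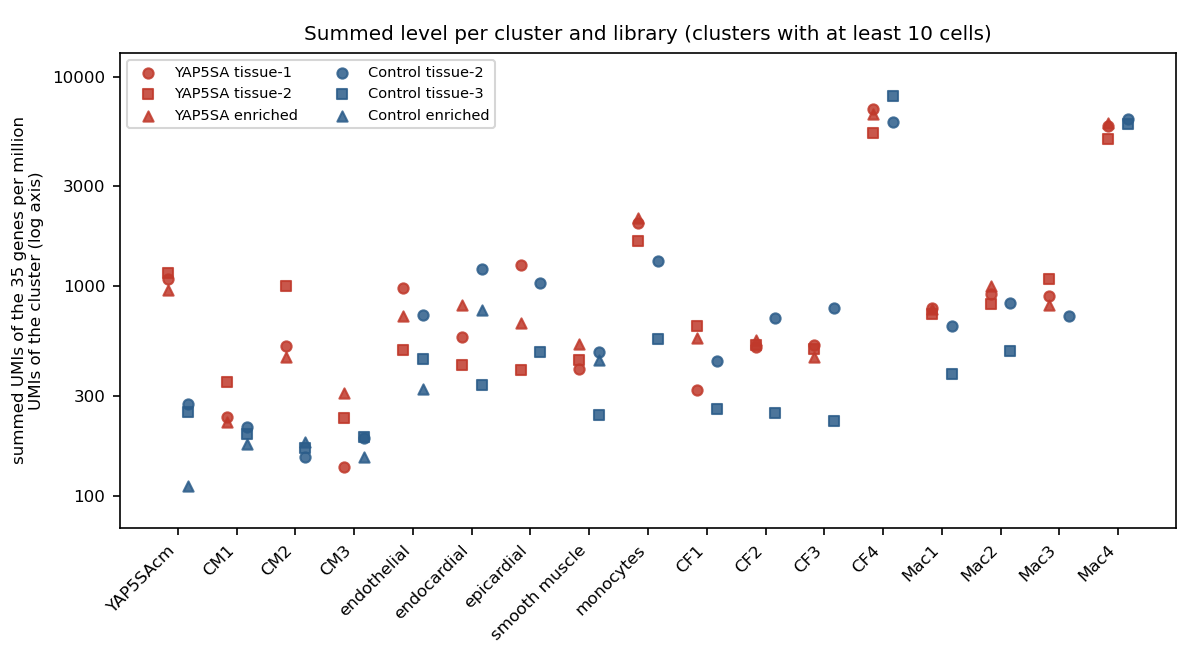
Summed CPM of the 35 genes in each cluster and library, on a log axis, for clusters with at least 10 cells; red points are YAP5SA and blue points Control libraries, and shapes name the library. YAP5SAcm lies at 958 to 1151 CPM in YAP5SA libraries and at 111 to 274 CPM in Control libraries, and CF4 and Mac4 lie at 5062 CPM or above in both genotypes.

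To compare cells of unlike depth, each cell was thinned to 1000 UMIs and shallower cells were left out, 55, 37 and 116 of the YAP5SA and 16, 17 and 19 of the Control cardiomyocytes. A UMI of any of the 35 genes was then found in 26.0%, 41.2% and 31.3% of YAP5SA cardiomyocytes and in 18.2%, 15.9% and 14.9% of Control cardiomyocytes. Unthinned, the shares were 44.9%, 65.2% and 56.8% in YAP5SA and 57.8%, 57.5% and 34.1% in Control. No cell type is sure to lack these genes, and smooth muscle cells, thinned alike, gave 11.1%, 40.9% and 11.5% in YAP5SA (18, 22 and 26 cells) and 27.8%, 14.3% and 27.8% in Control (18, 70 and 18 cells). Median depths before thinning were 1876, 2679.5 and 2698 UMIs in YAP5SA and 4595, 4565 and 2204 UMIs in Control cardiomyocytes, and 1213.5, 1879.5 and 1709 UMIs in YAP5SA and 1316, 1670.5 and 1333.5 UMIs in Control smooth muscle cells. The shares of Control cardiomyocytes lie within the range of the smooth muscle libraries, above 3 and below 3 of them. In YAP5SA cardiomyocytes 26.0% and 31.3% also lie within that range, and 41.2% lies above its highest value of 40.9%. The shares of neither genotype are read as expression.

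After thinning, several members in 1 cell separated the genotypes more sharply in cardiomyocytes than single UMIs did. At least 3 different members were found in 11 of 288, 26 of 245 and 56 of 888 thinned YAP5SA cardiomyocytes, which is 3.82%, 10.6% and 6.31%. In Control cardiomyocytes such cells numbered 0 of 560, 1 of 1156 and 0 of 1049, and the counts of 0 allow shares of up to 0.536% and 0.286%. Together these were 93 of 1421 YAP5SA and 1 of 2765 Control cardiomyocytes. The 93 cells held 53.5%, 60.3% and 52.9% of the members' thinned UMIs in the 3 YAP5SA libraries. Of the positive cells 68.0%, 58.4% and 66.5% in YAP5SA and 90.2%, 93.5% and 96.8% in Control libraries had a single member. The cluster YAP5SAcm held 85 of the 93, CM1 3, CM2 3 and CM3 2.

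Cenpa shows the difference within 1 gene. It was found in 15, 5 and 48 thinned YAP5SA and 10, 70 and 53 Control cardiomyocytes, and at least 1 other member was present in 9, 3 and 28 of those YAP5SA cells and in 2, 6 and 1 of those Control cells. The outer kinetochore gene Spc25 was found in 8, 7 and 28 YAP5SA and 0, 2 and 0 Control cardiomyocytes. Of these YAP5SA cells 5, 7 and 23 held another member, and neither of the 2 Control cells did.

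Of the 93 YAP5SA cardiomyocytes with at least 3 members, 82 carried the authors' G2M phase call, which uses some of the same transcripts and is not independent. These cells had a median of 4645, 4823.5 and 3622.5 UMIs before thinning, against 2072, 3288 and 3349.5 UMIs in YAP5SA cardiomyocytes with no member. Cardiomyocyte markers summed to 11313, 14134 and 25500 CPM in them and to 36082, 31099 and 40046 CPM in cells with no member. Fibroblast, macrophage and monocyte markers summed to 348, 2097 and 1972 CPM in the cells with at least 3 members and to 813, 955 and 874 CPM in cells with no member. Doublets were not removed, and the part of depth and of these markers in the result was not tested.

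**Figure D3:**
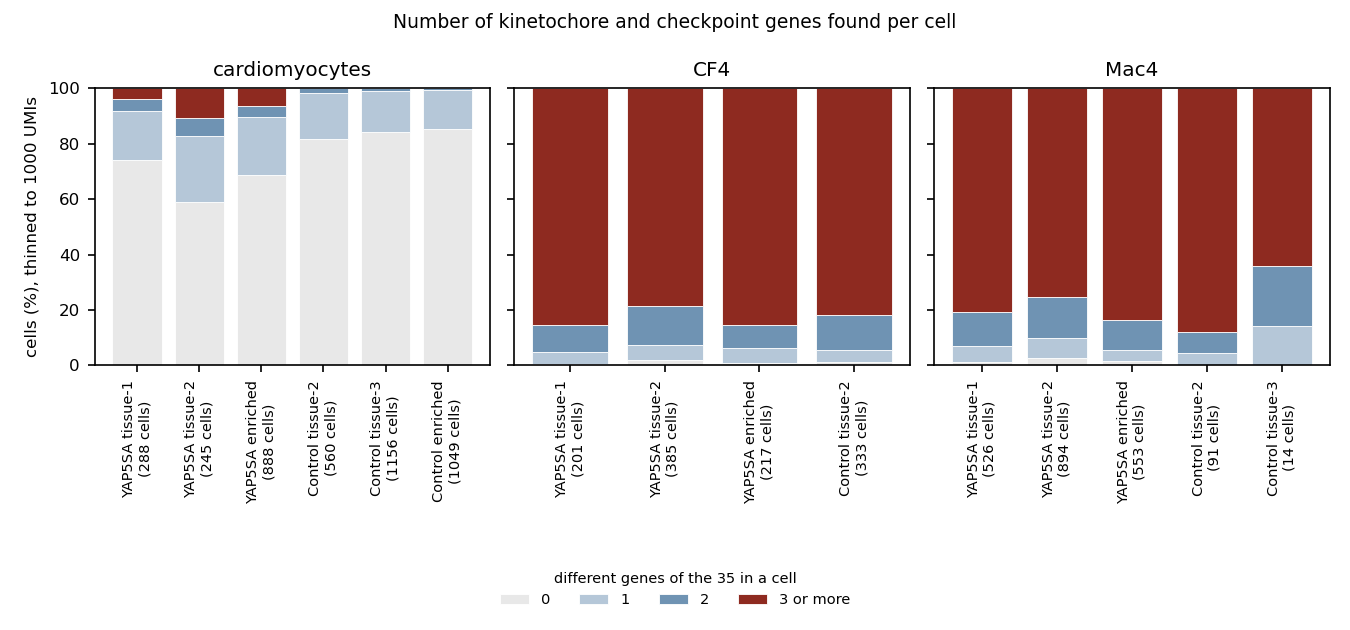
Share of cells, thinned to 1000 UMIs, in which 0, 1, 2 or at least 3 different genes of the 35 were found, for cardiomyocytes, CF4 and Mac4 in each library, YAP5SA left of Control, with the number of cells in brackets. At least 3 genes were found in 3.82% to 10.6% of YAP5SA cardiomyocytes and in 0% to 0.0865% of Control cardiomyocytes, and in most cells of CF4 and Mac4 in both genotypes.

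CF4 and Mac4 are the fibroblast and macrophage clusters in which these genes are highest, and they show what a cluster of mostly cycling cells looks like in these data. The 35 genes summed to 6995, 5367 and 6606 CPM in YAP5SA and 6100 and 8072 CPM in Control cells of CF4, the last value on 12 cells. In Mac4 they summed to 5785, 5062 and 5995 CPM in YAP5SA and 6291 and 5914 CPM in Control cells. Both clusters were absent from the Control enriched library. The 958 to 1151 CPM of YAP5SA cells in YAP5SAcm lie below all of these values, but the clusters differ in phase calls. Of YAP5SA cells, 717 were called G1 and 122 G2M in YAP5SAcm, 7 and 741 in CF4, and 4 and 1844 in Mac4. In the YAP5SA cells called G2M the 35 genes summed to 5052 CPM in YAP5SAcm, 6773 CPM in CF4 and 6073 CPM in Mac4. The phase call uses some of the same transcripts and is not independent. At least 3 members were found in 172 of 201, 303 of 385 and 185 of 217 YAP5SA and 273 of 333 Control cells of CF4, where Control tissue-2 alone had enough cells to count. In Mac4 such cells were 425 of 526, 675 of 894 and 463 of 553 in YAP5SA and 80 of 91 and 9 of 14 in Control.

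Across whole classes, fibroblasts and macrophages showed no called genotype effect on these genes. In fibroblasts 0 of 35 members were called by edgeR (0 at an unadjusted p under 0.05, 0 by DESeq2), while 1.65% of 11454 genes were called higher and 0.786% lower. Of those 11454 genes, 984 had an unadjusted p under 0.05. Spc25 had 86.4, 62.6 and 80.6 CPM in YAP5SA and 98.1, 22.8 and 0 CPM in Control fibroblasts, and the groups overlap. The Control libraries differed among themselves: CF4 made up 425 of 1465 fibroblasts in Control tissue-2, 12 of 415 in tissue-3 and 0 of 10 in the enriched library, and 258 of 1302, 409 of 1934 and 272 of 1249 in the YAP5SA libraries. Without Control tissue-2 20 members were called higher in fibroblasts, among 5.80% of all genes. In the 4 libraries with joined names 2 were called lower, among 2.52% of all genes.

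In macrophages, of which Control enriched held none, 0 of 35 members were called in the other 5 libraries (2 at an unadjusted p under 0.05, Cenpw and Cenpe, and 0 by DESeq2), against 0.498% of 12856 genes called higher and 0.109% lower. Of those 12856 genes, 1252 had an unadjusted p under 0.05. Spc25 had 84.3, 65.8 and 107 CPM in YAP5SA and 68.5 and 29.8 CPM in Control macrophages, so the groups overlap. Without Control tissue-2 2 members were called higher, among 4.80% of all genes, which is near that share.

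The difference between the genotype effects was tested directly, with the class by genotype term and the library as a block. Against fibroblasts, 23 of 35 members had a more positive effect in cardiomyocytes and none a more negative one, among 10.4% and 6.96% of 12405 genes. Spc25 differed by 4.17 ± 0.59 (SE, log2, adjusted p 5.08e-10), Birc5 by 3.45 ± 0.58 (adjusted p 2.8e-07) and Knstrn by 3.89 ± 0.69 (adjusted p 1.43e-06). Against macrophages it was 18 members more positive and 0 more negative, among 5.58% and 7.26% of 13435 genes. Birc5 differed by 3.61 ± 0.51 (adjusted p 1.44e-05), Cdca8 by 4.01 ± 0.61 (adjusted p 3.64e-05) and Spc25 by 3.89 ± 0.60 (adjusted p 4.5e-05). The count against fibroblasts moved with single libraries, to 12 without YAP5SA tissue-2, among 4.73% of all genes, and to 4 more positive and 3 more negative without Control tissue-2, among 1163 more positive and 1255 more negative of 12500 genes, and it was 15 in tissue libraries alone, among 5.10%.

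**Figure D4:**
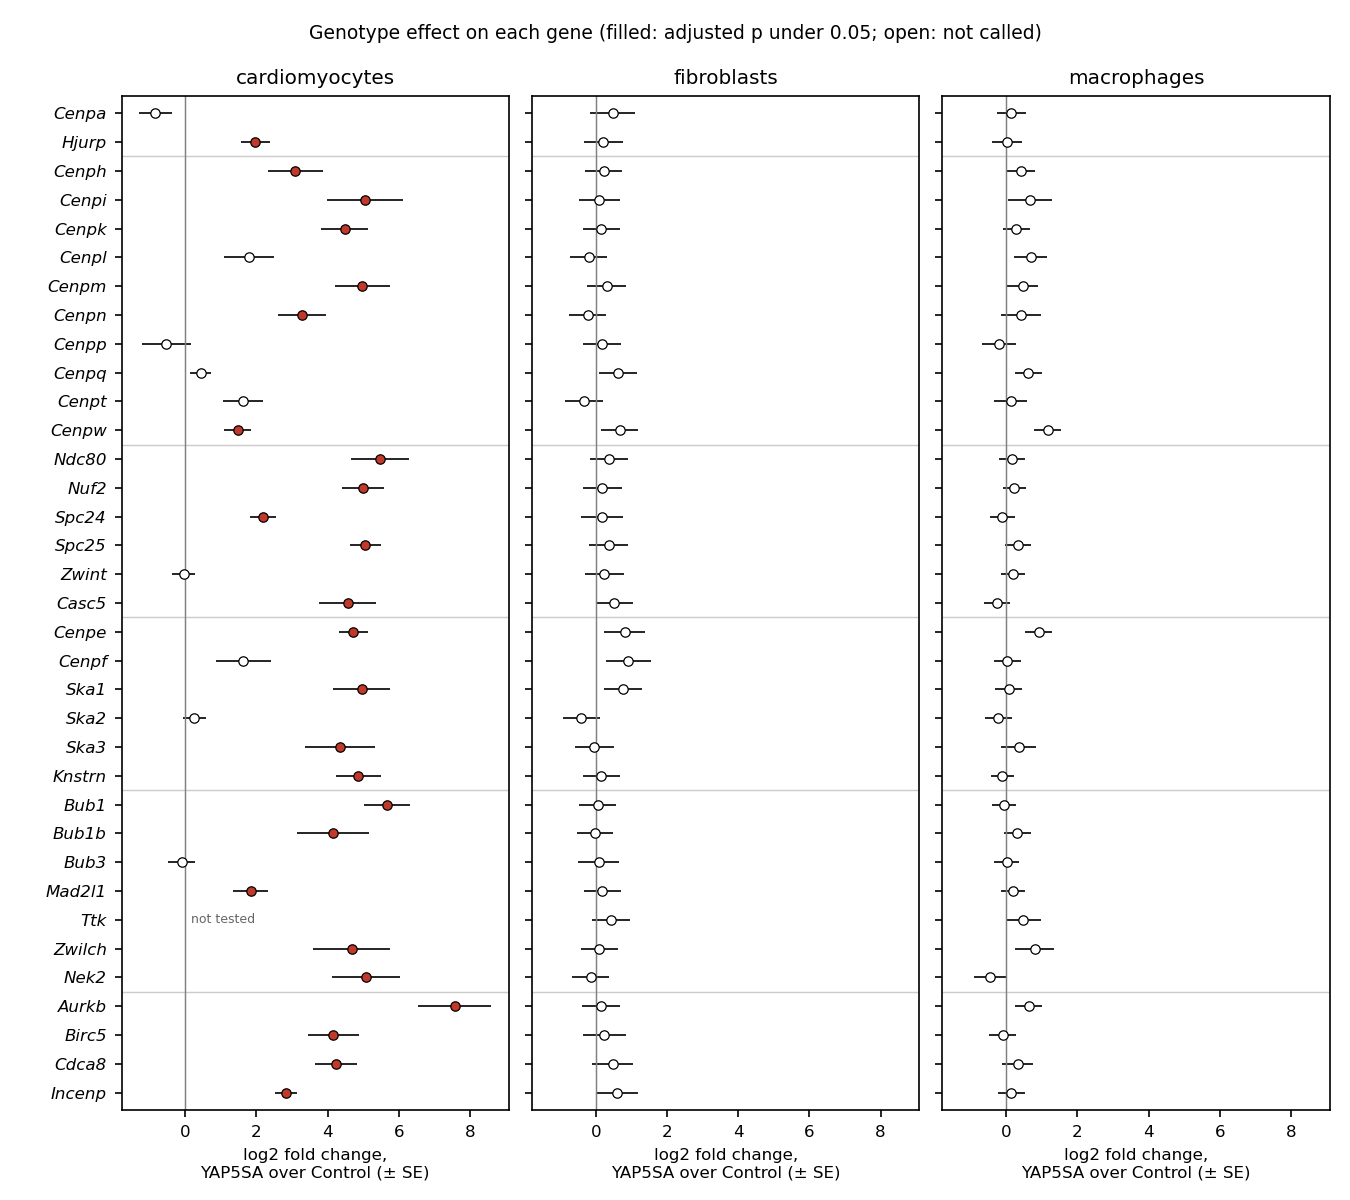
Log2 fold change of each of the 35 genes, YAP5SA over Control, with its standard error, in cardiomyocytes, fibroblasts and macrophages; filled points passed an adjusted p of 0.05 and open points did not. In cardiomyocytes 25 points are filled, all to the right of 0, and in fibroblasts and macrophages none is.

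The mix of members was not the same in YAP5SAcm as in CF4 and Mac4, and is described here within the 3 YAP5SA libraries with no test. All cells of a cluster are counted, whatever their phase call. Cells called G1 held 947 of the 4099 members' UMIs in YAP5SAcm, but 15 in CF4 and 17 in Mac4, and the part of this in the mix was not tested. Spc24 made up 6.39% to 8.26% of the members' UMIs in YAP5SAcm, 2.83% to 3.94% in CF4 and 2.08% to 2.54% in Mac4. Zwint made up 6.34% to 8.80% in YAP5SAcm, 0.887% to 1.40% in CF4 and 1.17% to 1.71% in Mac4. The ranges of Spc24, Spc25, Zwint, Bub3, Knstrn, Ska2 and Cenpt in YAP5SAcm lie above both others. Bub3 made up 4.10% to 5.73% in YAP5SAcm, 2.99% to 3.90% in CF4 and 3.53% to 4.03% in Mac4. Some other members held smaller shares in YAP5SAcm. Incenp made up 4.35% to 4.63% in YAP5SAcm, 5.49% to 6.35% in CF4 and 9.29% to 10.7% in Mac4, and Cdca8 made up 2.41% to 5.01% in YAP5SAcm, 5.10% to 6.86% in CF4 and 6.17% to 7.39% in Mac4. Cenpa, at 5.93% to 6.99% in YAP5SAcm, was at 8.61% to 10.7% in CF4 and 7.51% to 8.69% in Mac4. Zwint was also among the members found in Control cardiomyocytes, at 34.4 to 74.3 CPM.

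**Figure D5:**
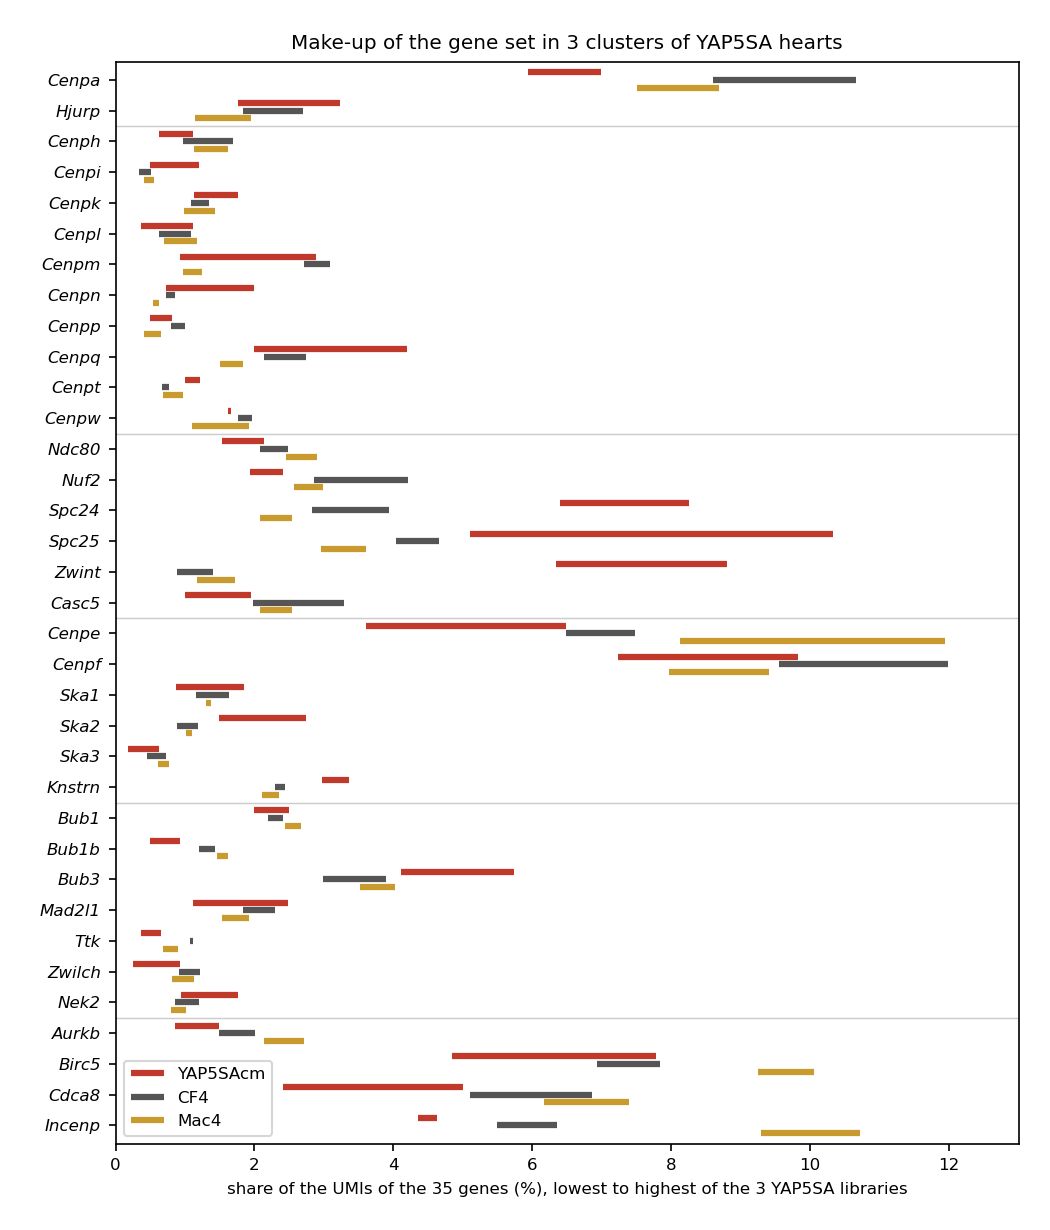
Share of the UMIs of the 35 genes that each gene holds in YAP5SAcm, CF4 and Mac4, drawn from the lowest to the highest of the 3 YAP5SA libraries. Zwint spans 6.34% to 8.80% in YAP5SAcm and stays below 2% in the other clusters, and Incenp spans 4.35% to 4.63% in YAP5SAcm and 9.29% to 10.7% in Mac4.

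Other genes of the pathway were taken from 2 lists made with earlier results of these data known. Of 26 further kinetochore, centromere and checkpoint genes, 25 were in the table and 21 were tested in cardiomyocytes. Of these 7 were higher, 2 were lower and 12 were not called, with a median log2 fold change of 1.09 against 0.06 over all genes. Among all genes tested there, 13.3% were called higher and 12.1% lower. Sgol1, which guards cohesion at the centromere until anaphase, had 11.3, 15.1 and 6.32 CPM in YAP5SA and 0.294, 0.273 and 0 CPM in Control (4.69 ± 0.69, adjusted p 0.00779). Mis18a, which helps prepare the centromere for new Cenpa protein, had 11.3, 11.9 and 9.70 CPM in YAP5SA and 1.47, 0.684 and 0.347 CPM in Control (2.89 ± 0.54, adjusted p 0.0128). Apitd1, an inner kinetochore histone-fold protein, had 20.8, 23.0 and 7.90 CPM in YAP5SA and 1.47, 2.19 and 1.39 CPM in Control (2.32 ± 0.46, adjusted p 0.0142). The 2 lower genes, named after their values were seen, were Cenpv (−1.91 ± 0.40, adjusted p 0.017) and Stra13, whose product pairs with that of Apitd1 (−1.10 ± 0.32, adjusted p 0.0422).

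The second list held 22 genes of the anaphase-promoting complex, its activators and its substrates, the machinery that the checkpoint holds back. All were tested in cardiomyocytes, 6 were higher and 2 lower, among 13.3% of all genes higher and 12.1% lower. The median log2 fold change of the list was 0.47. Cdc20, the activator that the checkpoint inhibits, had 35.9, 25.4 and 16.2 CPM in YAP5SA and 0.294, 0.273 and 0.347 CPM in Control (5.42 ± 0.49, adjusted p 0.0023). Ube2c, the ubiquitin-conjugating enzyme of the complex, had 66.1, 80.9 and 66.8 CPM in YAP5SA and 3.23, 0.410 and 0.694 CPM in Control (4.94 ± 0.60, adjusted p 0.00472). Ccnb1, the mitotic cyclin it destroys, had 18.9, 15.9 and 11.1 CPM in YAP5SA and 0.588, 0 and 0 CPM in Control (5.55 ± 0.86, adjusted p 0.00873). In these 3 genes the groups lie far apart. Anapc16, a core subunit, was lower, at 62.3, 52.4 and 57.1 CPM in YAP5SA and 73.7, 90.7 and 103.4 CPM in Control (−1.53 ± 0.30, adjusted p 0.0142), and without the scaling it fell by 0.63 on the log2 scale and was not called (adjusted p 0.102).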

How the data were processed

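Drop-seq libraries of 3 YAP5SA and 3 Control preparations were analysed from the deposited table of UMI counts (whole-number counts per gene and cell, not normalized) and the deposited table of cells, which gives the authors' clusters, phase calls and the mitochondrial fraction of each cell. The submitters' processing notes name Picard, STAR and Seurat 2.3.4; the genome build, annotation and strand setting are not given in the sources used here. Names joined by hyphens in 4 libraries (807 names in 709 families) were merged with their parts, which left 21274 features and touched no member; 1218 features counted under 1 annotation alone were not tested (0.130% of UMIs in those 4 libraries and 0.237% in the other libraries). No 2 libraries shared more than 2 cell barcodes. UMIs were summed per class and library with at least 10 cells.

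Tests ran over the whole table, in R 4.3.3, by the robust quasi-likelihood F test of edgeR 4.0.16 after TMM scaling and filterByExpr, preparation and genotype being the terms, with Benjamini-Hochberg adjustment over all tested genes at 0.05, and differences between classes with the class by genotype term and the library as a block. The genotype test in cardiomyocytes was also run on simulated counts, and the class by genotype test was not. Positive log2 fold changes mean higher in YAP5SA, and standard errors come from the F statistic. Shares of cells were computed after thinning to 1000 UMIs, and where none was found the limit is 3 counts, which like the exact intervals covers counting error only. Library totals of 3382656 to 13483791 UMIs limit the precision of low genes. No doublet caller was run.

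Values per library are given for the 12 members with the smallest p and the 3 with the largest p in cardiomyocytes, for up to 3 members called in each difference between classes and for the 4 related genes of smallest p in each list, 1 of which is not reported here; Spc24, Hjurp, Cenpa, Cenpf, Cenpv and Stra13 were added after their values were seen. The members, the lists and the tests were chosen with earlier results of these data known. Alternatives were RLE factors, library totals, DESeq2 1.42.0, all genes kept whatever their count, no preparation term, tissue libraries alone, names not merged, the 4 libraries with joined names, cells without markers of other types, at least 30 cells, and each library left out. Scaled values were left aside, because they are not counts.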

Additional observations from a re-analysis of the deposited data

Results flagged for a closer look

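The genotype effect on these genes differed between cardiomyocytes and the other classes in a direct test of the difference (edgeR's quasi-likelihood test of the class by genotype term). Against fibroblasts 23 of 35 members had the more positive effect in cardiomyocytes, and those with the smallest p were Spc25 (4.17), Birc5 (3.45) and Knstrn (3.89, log2). Against macrophages 18 members did, and those with the smallest p were Birc5 (3.61), Cdca8 (4.01) and Spc25 (3.89, log2). Of all genes tested, 10.4% differed in that direction against fibroblasts and 5.58% against macrophages. Without Control tissue-2, the Control library with the most CF4 cells, 4 members differed in that direction against fibroblasts, among 9.30% of all genes. Groups of 3 libraries are too small to be searched for a library that stands apart.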

How the results depend on the processing

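The count of members higher in cardiomyocytes, 25, was 22 to 30 with RLE factors, library totals, DESeq2, no filter, no preparation term, names not merged, the 4 libraries with joined names and at least 30 cells. The 30 were called with library totals, among 4382 of 11842 genes. The 22 were called among 1615 of 10925 genes (no preparation term) and 2280 of 11453 (joined names). The count was 18 in tissue libraries, among 1036 of 10760 genes, and 7 in cells without markers of other types, among 653 of 7911. With a library left out it was 6 (YAP5SA tissue-2, among 194 of 11469 genes) to 26 (Control tissue-2, among 2390 of 11593). In CM1 to CM3 the count of 0 was 3 with DESeq2, among 249 of 10335 genes, and 3 without the filter, among 302 of 18755. Without the filter 1 member was also lower, among 487 of the 18755 genes. With a library left out the count higher was 0 to 3, the 3 being without Control tissue-2, among 743 of 9874 genes. In YAP5SAcm the count of 6 was 2 with DESeq2, among 224 of 7014 genes, and 0 in tissue libraries, among 61 of 6430. It was 2 with names not merged, among 204 of 7155 genes, and 8 with library totals, among 680 of 7014. In the 4 libraries with joined names it was 8, among 527 of 7724 genes, and 1 member was lower, among 467. With a library left out it was 0 to 6, the 6 among 385 of 9790 genes. In cells without markers of other types no member could be tested. In fibroblasts the count with a library left out was 0 to 20, the 20 among 642 of 11068 genes. In macrophages it was 0 with any YAP5SA library left out. For cardiomyocytes against fibroblasts it was 4, among 1163 of 12500 genes, to 24, among 824 of 12777. In tissue libraries that count was 15, among 654 of 12832 genes. The cause of these shifts was not tested, beyond the smaller number of libraries or cells. Log2 fold changes turned round for Ska2 (−0.13 in cells without markers of other types), Bub3 (0.74 with library totals, and −0.57 to 0.24 with a library left out, above 0 without Control tissue-2, 0.14, or YAP5SA tissue-1) and Zwint (0.80 with library totals, and −0.24 to 0.25 with a library left out, above 0 without the same libraries). Of 185 values of the 12 members named, 178 kept direction and call and 7 kept the direction alone, all without YAP5SA tissue-2 or tissue-1. The 12 were picked by the smallest p of the main test, so these values do not speak for all 25. A member not tested in an alternative gave no value there, as for Bub1 and Cenpe in cells without markers of other types. The mean share of cardiomyocytes with a member was 20.6% in YAP5SA and 9.06% in Control at 500 UMIs, and 55.6% in YAP5SA and 49.8% in Control unthinned; with at least 3 members it was 18.6% in YAP5SA and 6.57% in Control unthinned. The cell cycle homology region was in 15 of 30 members and 9.87% of all genes from 100 bases before to 50 after the start. No paired analysis was possible because, although the sample labels of both genotypes carry the same numbers, the names of the YAP5SA tissue libraries in the tables do not show which of these samples each is. Depth limits the low members: 18 had fewer than 10 UMIs in Control cardiomyocytes.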
